A study of Mus musculus with 36 samples.

Results

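The genes described here are 10 genes of mitochondrial dynamics and mitochondrial clearance in the mouse: the fusion genes Mfn1, Mfn2 and Opa1 with the protease gene Oma1, the fission genes Dnm1l, Fis1 and Mff, and the mitophagy genes Pink1, Bnip3 and Fundc1. They were chosen by name, their symbols were matched to the gene identifiers of the deposited tables, and all 10 were listed in all 6 count tables, which share 51413 genes. The study fed wild-type C57BL/6 male mice (C57BL/6N in the methods), 6 weeks old, a high-fat diet (HFD, 60% of energy from fat) or a low-fat diet (LFD, 10%) for 2 weeks. RNA-seq was made from their cauda epididymal spermatozoa (3 libraries per diet), from their round spermatids (6 libraries), and from morulae that were fertilised in vitro with sperm of HFD- or LFD-fed males and oocytes of unexposed females and were picked after 72 h in culture (3 libraries per diet). Liver, epididymal white adipose tissue (eWAT) and gastrocnemius muscle (6 libraries each) came from chow-fed male F1 offspring, all of them sons of HFD-fed fathers. The column names of the round spermatid, liver, eWAT and gastrocnemius tables name no sample, so each of these tables was taken as 1 group of 6 libraries, in which the diet of the donor or the glucose tolerance of the offspring was not separated. Diet was therefore compared only in sperm and in morula. The descriptions of 3 of the 6 morula samples name the other diet than their titles and treatment entries, and the titles were followed. The methods name 3 mice per diet for round spermatids; for the other groups the labels do not say whether libraries came from separate animals, and the p-values then measure only the spread between libraries, which may be technical.

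Mitochondria are joined and divided continuously. Mitofusins encoded by Mfn1 and Mfn2 tether and fuse the outer membranes of neighbouring mitochondria, the dynamin-like GTPase encoded by Opa1 fuses the inner membranes and shapes the cristae, and the stress-activated protease encoded by Oma1 cleaves the Opa1 protein. Division is driven by the dynamin-related protein Drp1, the product of Dnm1l, which assembles on the outer membrane at receptors that include Mff and Fis1. Damaged mitochondria are removed by mitophagy, either through the kinase encoded by Pink1, which recruits the ubiquitin ligase parkin, or through receptors of the outer membrane such as those encoded by Bnip3 and Fundc1. In the male germ line mitochondria are rearranged into the sheath of the sperm midpiece, and paternal mitochondria are removed from the early embryo.

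Sperm libraries held 2560219 to 4062321 counts, morula libraries 11471251 to 12153141, round spermatids 20138842 to 31056066, liver 2036237 to 2552454, eWAT 1338149 to 4055537 and gastrocnemius 369772 to 2749920. Levels are given as counts per 1000000 counts of the library (CPM). A floor of 3 counts corresponded to 0.0966 to 0.149 CPM in round spermatids, 0.738 to 1.17 CPM in sperm and 1.09 to 8.11 CPM in gastrocnemius. Floors cover counting error only. None of the genes was at 0 in any library. The germ cell and morula libraries were made with the Nextera kit and cover whole transcripts, whereas the offspring libraries were QuantSeq 3′ tags, so that levels of different genes were divided by the summed exon length (CPM per kb) only in the former. The defining markers of each labelled tissue were high in its own libraries: 6 liver markers summed to 47988 to 69231 CPM in liver and 6 muscle markers to 38699.5 to 84076 CPM in gastrocnemius. RNA encoded by mitochondrial DNA took 80.5% ± 3.32 of the counts in sperm of HFD-fed males and 57.2% ± 11.9 in sperm of LFD-fed males (SD, n = 3 each), against 2.14% ± 0.170 in round spermatids (SD, n = 6). The methods name total (Ribo-minus) RNA libraries for round spermatids and state no such step for sperm or morula. Its part in these shares and in the levels was not tested. In bulk samples, fewer cells of a type and less RNA per cell cannot be told apart.

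Sequences just before the starts of Mfn1, Mfn2, Opa1 and Bnip3 are shown because these genes recur in the values that follow. Mfn1 and Mfn2 are the mitofusin pair. Opa1 had the largest diet difference in sperm among the 9 members tested, although it did not pass. Bnip3 is a receptor gene low in round spermatids, as is Fundc1. The sequences were taken from RefSeq (GRCm38.p6), which held a window for all 10 genes. They were ended before the first base that the annotation places in an exon of the gene. They are written 5′ to 3′ on the strand of the gene. The Mfn1 window is chr3:32529232-32529464 (plus strand), that of Mfn2 chr4:147904705-147904948 (minus strand), that of Opa1 chr16:29579084-29579333 (plus strand) and that of Bnip3 chr7:138909520-138909756 (minus strand). Capitals mark the matches found to the motif of the transcription factor NRF1 or to the hypoxia core (ACGTG), on either strand.
Mfn1: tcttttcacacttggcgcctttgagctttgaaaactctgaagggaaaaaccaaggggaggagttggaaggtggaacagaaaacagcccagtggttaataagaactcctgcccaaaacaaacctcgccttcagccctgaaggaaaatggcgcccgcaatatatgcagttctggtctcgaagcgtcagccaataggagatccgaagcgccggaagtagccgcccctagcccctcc
Mfn2: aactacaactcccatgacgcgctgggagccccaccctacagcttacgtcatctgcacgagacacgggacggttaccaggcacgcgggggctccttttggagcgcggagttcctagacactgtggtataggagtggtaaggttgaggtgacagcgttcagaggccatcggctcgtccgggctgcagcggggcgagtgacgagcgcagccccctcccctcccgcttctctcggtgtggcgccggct
Opa1: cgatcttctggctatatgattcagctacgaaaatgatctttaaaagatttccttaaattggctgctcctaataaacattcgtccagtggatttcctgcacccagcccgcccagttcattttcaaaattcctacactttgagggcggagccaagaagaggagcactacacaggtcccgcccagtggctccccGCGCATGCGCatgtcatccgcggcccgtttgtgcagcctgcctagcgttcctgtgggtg
Bnip3: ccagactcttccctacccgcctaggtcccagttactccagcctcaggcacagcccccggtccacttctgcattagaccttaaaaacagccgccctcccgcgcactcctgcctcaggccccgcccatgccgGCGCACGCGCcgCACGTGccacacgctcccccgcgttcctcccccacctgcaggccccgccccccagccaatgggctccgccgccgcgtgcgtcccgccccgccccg

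The NRF1 motif was in the 250-base windows of 4 of the 10 genes (Opa1, Oma1, Pink1 and Bnip3) and in 3.87% of the windows of 27026 genes. The matches of Oma1 and Pink1 lie in the last 34 and 11 bases of their windows, which the annotation places in an exon of the gene. Windows of the 10 genes were set at the annotated start nearest to the gene start given below. Those of all genes were set at the most upstream start. The Fundc1 window ends at a start 318 bases inside the gene. The hypoxia core was searched only as ACGTG, whose letters lie within the palindrome CACGTG, and other forms of it were not searched. In this form it was in the window of Bnip3 alone of the 10 and in 16.5% of all windows. The site AAGGTCA of the oestrogen-related receptors and the cAMP response element TGACGTCA matched in none of the 10 windows, and in 4.04% and 1.6% of all windows. These matches describe letters in a window and were not tested for binding.

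The mitofusin genes differed in level between germ cells, embryos and offspring tissues. Mfn1 (ENSMUSG00000027668, chr3:32529465-32579239, plus strand of GRCm38) had 68.9, 76.3 and 78.8 CPM as the lowest, median and highest value in round spermatids, and 185, 203 and 229 CPM in the 6 morula libraries. Mfn2 (ENSMUSG00000029020, chr4:147873599-147904704, minus strand) had 369, 401 and 413 CPM in round spermatids but 17.3, 24.9 and 31.6 CPM in morula. Round spermatids were thus high in Mfn2, morulae were high in Mfn1, and neither gene's values overlapped between these cell types. The share of all genes without overlap there was not counted, so this is not read as particular to these genes. Per kb, the ratio of Mfn2 to Mfn1 was 5.69 to 6.997 in round spermatids, 0.107 to 0.178 in morulae of HFD-fed fathers and 0.122 to 0.179 in morulae of LFD-fed fathers. In sperm it spread from 0.981 to 7.17 with HFD and from 0.699 to 2.59 with LFD, so that the diets overlapped. As a ratio of counts, which for 3′ tags is not divided by length, it was 2.24 to 4.45 in gastrocnemius, 3.28 to 6.14 in liver and 4.89 to 7.22 in eWAT. Only the morula libraries held fewer Mfn2 than Mfn1 counts per kb without exception among the groups examined. The ratio was chosen after the values had been seen and was not tested, since the tables differ in kit and read layout. Differences between round spermatids and morulae are likewise described here and were not tested.

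**Figure D1:**
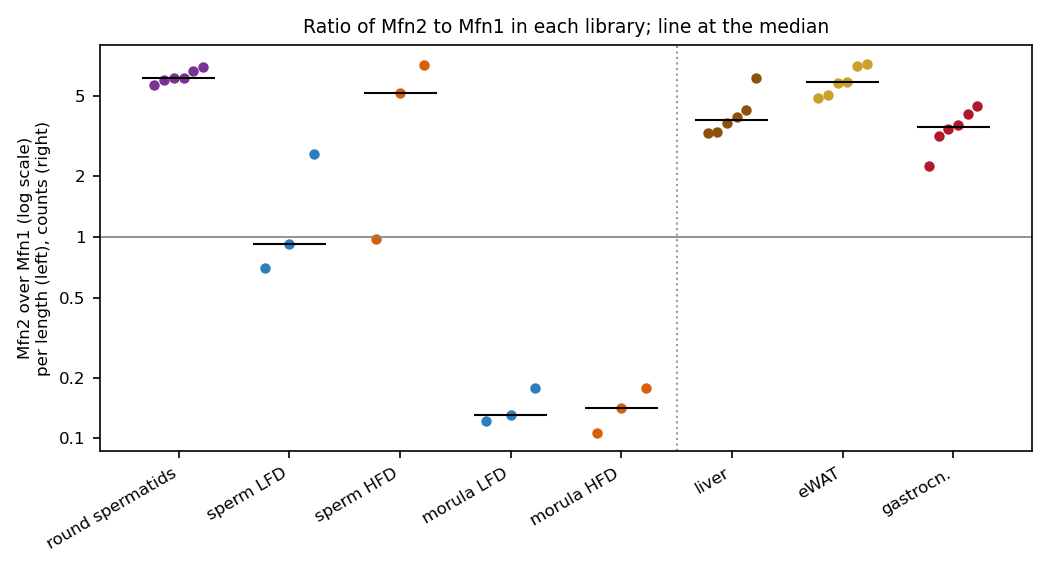
Ratio of Mfn2 to Mfn1 (log axis) in each of the 36 libraries, per kb for Nextera libraries and as counts for QuantSeq libraries, with a line at each group's median. The 6 morula libraries sit below 0.2, and every round spermatid and offspring tissue library sits above 2.

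The other genes of fusion and fission are given for the same cell types. Opa1 (ENSMUSG00000038084, chr16:29579334-29654884, plus strand), the inner membrane fusion gene, had 51.2, 56.0 and 58.2 CPM in round spermatids and 50.01, 51.8 and 55.5 CPM in morula. These ranges overlap. Oma1 (ENSMUSG00000035069, chr4:103313812-103371868, plus strand) was low in round spermatids, with 3.35, 3.67 and 4.11 CPM, and had 8.80, 10.3 and 13.2 CPM in morula. Dnm1l (ENSMUSG00000022789, chr16:16312230-16358959, minus strand), which encodes the fission GTPase, had 92.7, 99.5 and 109 CPM in round spermatids and 80.5, 90.8 and 99.2 CPM in morula. The round spermatid table gives Dnm1l a shorter summed exon length (4107 bases) than the other tables (5203 bases), so its counts were not taken over quite the same exons. Among the fission receptors, Mff (ENSMUSG00000026150, chr1:82724890-82752394, plus strand) had 214, 225 and 232 CPM in round spermatids and 20.7, 25.1 and 31.8 CPM in morula. Fis1 (ENSMUSG00000019054, chr5:136953275-136966234, plus strand) had 19.7, 21.6 and 24.9 CPM in round spermatids and 4.38, 5.77 and 7.41 CPM in morula. Both receptors were higher in every round spermatid library than in any morula library, but the share of all genes with such a gap was not counted.

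The mitophagy genes also differed in level between round spermatids and morulae. Pink1 (ENSMUSG00000028756, chr4:138313409-138326307, minus strand), the kinase gene of the parkin pathway, had 152, 166 and 170 CPM in round spermatids and 37.8, 47.3 and 52.2 CPM in morula. Bnip3 (ENSMUSG00000078566, chr7:138890836-138909519, minus strand), a mitophagy receptor gene induced by hypoxia, had only 2.00, 2.45 and 2.87 CPM in round spermatids, from 54 to 71 counts per library, and 73.4, 78.8 and 90.5 CPM in morula. Fundc1 (ENSMUSG00000025040, chrX:17556564-17572325, minus strand), another receptor gene of hypoxic mitophagy, had 0.178, 0.372 and 0.546 CPM in round spermatids, from 4 to 13 counts, and 9.78, 13.2 and 18.7 CPM in morula. Round spermatids were low in both receptor genes and high in Pink1. The ratio of Pink1 to Bnip3 per kb was 46.5 to 70.5 in round spermatids and 0.405 to 0.566 in morula of either diet group. Within each library kind, ranked by CPM per kb, Mfn2 and Pink1 led in round spermatids with medians of 77.2 and 62.1, whereas in morula Bnip3 and Mfn1 led with medians of 34.8 and 33.1. Bnip3 counts carry an uncertainty of assignment: 5 other annotated genes hold stretches of at least 300 bases with at least 95% identity to a Bnip3 transcript. The lincRNA gene AC160336.1 and the antisense gene Gm45507 match on the opposite strand. Whether the counting used strand is not given in the sources used here. Gm45507 overlaps 22.3% of the Bnip3 exon bases and had 0 counts in every group. Counts of AC160336.1 were 29.8% of those of Bnip3 in liver, 11.8% in eWAT and 0.272% in gastrocnemius. They were 28.6% in sperm of LFD-fed males and 100% in sperm of HFD-fed males, where both are very low.

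**Figure D2:**
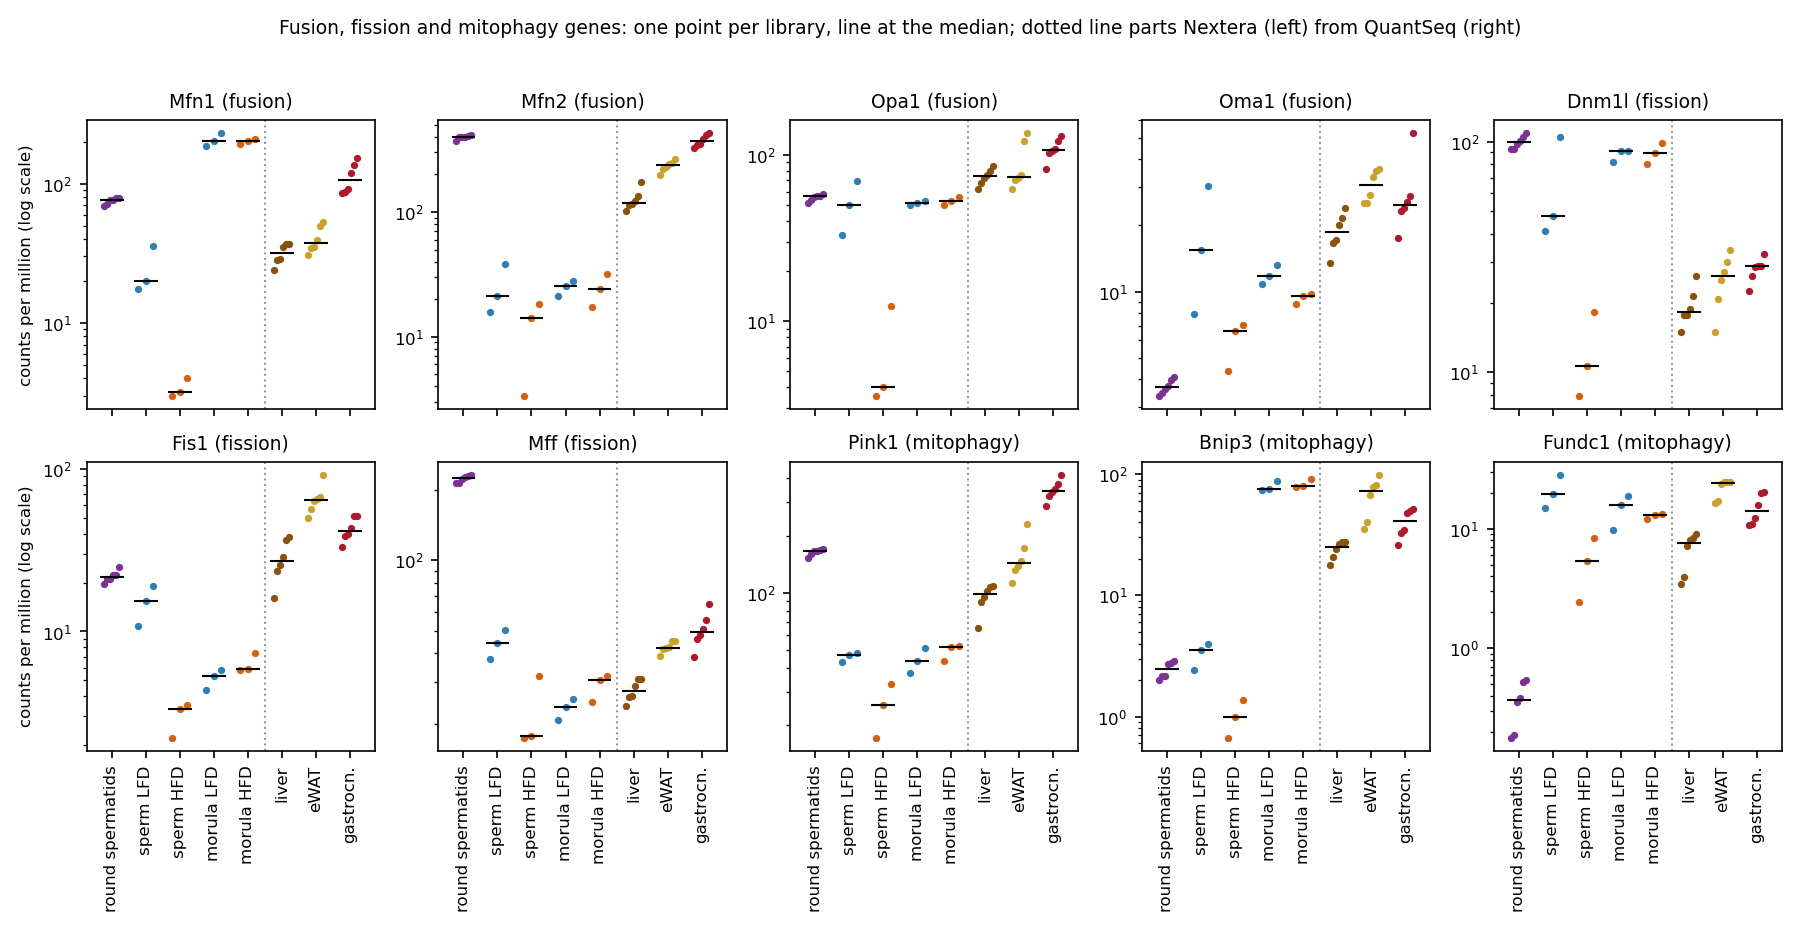
CPM (log axis, with its own range in each panel) of each gene in every library, by group, with a line at the group median; the dotted line parts Nextera from QuantSeq libraries. Bnip3 is lowest in sperm and round spermatids, Fundc1 is lowest in round spermatids, Mfn1 is highest in morula, and Mff is highest in round spermatids.

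Across the offspring tissues, all 10 genes were higher in gastrocnemius than in liver (edgeR, Benjamini-Hochberg adjusted p from 8.98e-10 to 0.0277), where 66.4% of the 10851 genes tested passed in either direction and 31.4% were higher in gastrocnemius. The median log2 fold change was 0.81 for the 10 genes and -0.06 for all genes tested. Their groups did not overlap for 6 of the 10 after scaling by trimmed mean of M-values (TMM), against 18.6% of all genes in that direction. The libraries are the same ones in each tissue comparison, so the 3 comparisons are not independent of each other.

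Pink1 and the mitofusin genes differed most. Pink1 had 286, 346 and 417 CPM in gastrocnemius and 65.0, 97.9 and 109 CPM in liver as the lowest, median and highest value. The groups did not overlap, with a log2 fold change of 1.90 ± 0.17 (SE) and an edgeR adjusted p of 8.98e-10. Mfn1 had 86.1, 106 and 154 CPM in gastrocnemius against 23.9, 32.0 and 37.1 CPM in liver, again without overlap and with a log2 fold change of 1.84 ± 0.18. Mfn2 had 328, 370 and 427 CPM against 102, 119 and 175 CPM, with a log2 fold change of 1.59 ± 0.16. These 3 genes had the largest differences of the 10. Fundc1 had 10.8 to 20.3 CPM in gastrocnemius and 3.43 to 9.01 CPM in liver, and rose by 1.20 ± 0.25 on the log2 scale. Mff was 0.89 ± 0.14 higher, from 38.5 to 65.2 CPM against 23.9 to 31.0 CPM. The other members rose by less: Bnip3 by 0.73 ± 0.25, Fis1 by 0.63 ± 0.20, Opa1 by 0.59 ± 0.18, Oma1 by 0.57 ± 0.22 and Dnm1l by 0.53 ± 0.19 on the log2 scale. Of these 5 only Opa1 had groups without overlap on the TMM scale.

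Against eWAT, gastrocnemius was higher in 7 of the 10 genes (edgeR adjusted p from 4.51e-11 to 0.00220), where 67.4% of all genes passed and 26.3% were higher in gastrocnemius. The median log2 fold change of all genes was -0.35 in this comparison, so values relative to that median are 0.35 larger. TMM factors were 0.744 to 0.853 in gastrocnemius and 1.44 to 1.70 in eWAT. The fold changes therefore do not follow from the CPM, which are relative to library totals. Mfn1 led with a log2 fold change of 2.43 ± 0.18, from 30.6, 37.3 and 52.7 CPM in eWAT to the gastrocnemius values above, and the groups did not overlap. Pink1 followed with 2.13 ± 0.17 and had 112, 142 and 229 CPM in eWAT. Mfn2, with 199, 236 and 266 CPM in eWAT, was 1.63 ± 0.16 higher in gastrocnemius. Opa1 was higher by 1.26 ± 0.18, Mff by 1.20 ± 0.14, Dnm1l by 1.05 ± 0.19 and Oma1 by 0.81 ± 0.22 on the log2 scale. Fis1 and both mitophagy receptor genes did not pass: the log2 differences were 0.33 for Fis1 (95% interval -0.07 to 0.73), 0.16 for Bnip3 (-0.33 to 0.65) and 0.41 for Fundc1 (-0.06 to 0.87).

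Between eWAT and liver 5 genes passed, 3 lower and 2 higher in eWAT, where 61.6% of all genes passed, 28.9% lower and 32.6% higher. The lower ones were genes of fusion and fission: Opa1 fell by 0.67 ± 0.18, Mfn1 by 0.59 ± 0.17 and Dnm1l by 0.52 ± 0.18 on the log2 scale (edgeR adjusted p from 0.00210 to 0.0186). The higher ones were the mitophagy receptor genes, Fundc1 by 0.80 ± 0.23 and Bnip3 by 0.57 ± 0.23. Fundc1 had 16.4, 24.2 and 24.8 CPM in eWAT and 3.43, 7.67 and 9.01 CPM in liver. Bnip3 had 35.1, 72.8 and 98.0 CPM in eWAT and 17.7, 25.2 and 27.6 CPM in liver. The directions depend on the scaling in this comparison. TMM factors were 1.44 to 1.70 in eWAT and 0.759 to 0.847 in liver. On library totals all 10 genes were higher in eWAT than in liver, 7 of them with adjusted p under 0.05, as were 64.5% of all genes, while the median of all genes moved from 0.07 to 1.00 on the log2 scale. That scaling also turned Fis1, Bnip3 and Fundc1 to lower in gastrocnemius than in eWAT, with log2 fold changes of -0.64, -0.78 and -0.55 that passed the test, as 67.8% of all genes did in that direction. Oma1, called higher in gastrocnemius under TMM scaling, turned to -0.13 and did not pass.

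**Figure D3:**
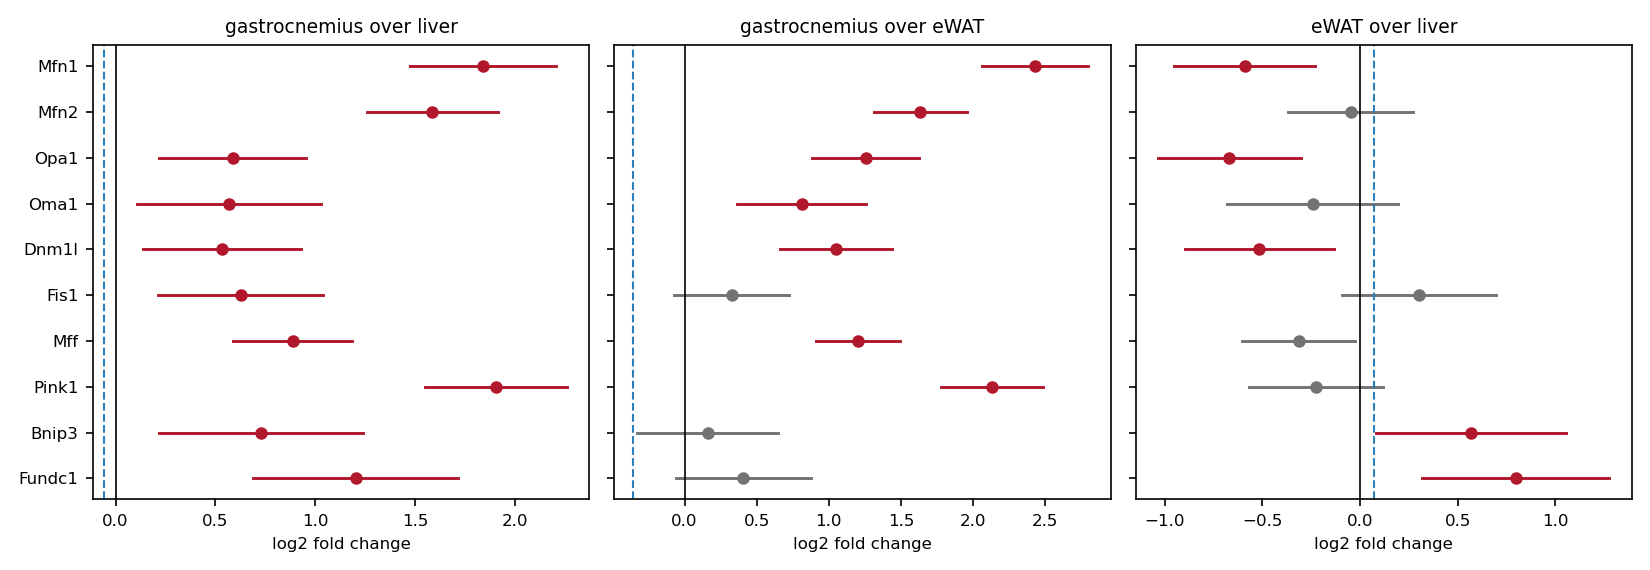
Log2 fold changes of the 10 genes between offspring tissues (points) with 95% intervals (bars), from edgeR with TMM scaling; red passed an adjusted p of 0.05, grey did not, and the dashed line is the median of all genes tested. All 10 genes lie right of 0 for gastrocnemius over liver, whereas eWAT over liver splits them; scaled to library totals, all 10 lie right of 0 for eWAT over liver.

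The 6 eWAT libraries differed among themselves in several of these genes. The libraries of 1338149 and 3512177 counts had 120 and 134 CPM of Opa1, against 62.0 to 75.5 CPM in the other 4. The same libraries had 173 and 229 CPM of Pink1, against 112 to 146 CPM, and 49.3 and 52.7 CPM of Mfn1, against 30.6 to 39.3 CPM. They were the lowest in Bnip3, with 35.1 and 40.4 CPM against 67.6 to 98.0 CPM. They also had the fewest counts on the 6 muscle markers, with 77.7 and 39.6 CPM against 188 to 1233 CPM, and the most on the 6 epididymal markers, with 10.5 and 11.96 CPM against 0 to 2.40 CPM. The library of 3512177 counts held 62.4 CPM on the 6 spermatid markers, against 0.740 to 3.44 CPM in the other 5. Its sum over 6 Sertoli and Leydig cell markers was 331 CPM, against 13.8 to 22.9 CPM, but nearly all of it was Sox9 (up to 322 CPM), while Amh, Rhox5 and Insl3 were at 0 in every eWAT library and Star reached 11.5 CPM. The adipocyte markers were high in all 6, at 31770 to 44677 CPM. The part of other tissue in these differences was not tested. Without the library of 3512177 counts the same 7 genes passed in gastrocnemius against eWAT and the same 5 in eWAT against liver. With all libraries 67.4% and 61.6% of all genes passed in these comparisons.

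Of 62 further genes of these pathways listed for comparison, 56 were tested between tissues. In gastrocnemius against liver 20 were higher and 20 lower, with a median log2 fold change of 0.20. Of all genes 66.4% passed there and 31.4% were higher. The higher ones were led by Nipsnap2 (490 ± 106 against 15.1 ± 5.99 TMM-scaled CPM, SD, n = 6 each), whose product marks depolarised mitochondria for autophagy, and by Fundc2, the paralogue of Fundc1, with 356 ± 57.6 against 18.9 ± 6.48. Dnm3, a dynamin gene, followed with 12.4 ± 5.29 against 0.704 ± 1.49. The lower ones were led by Nipsnap1, which was nearly absent from muscle (0.0815 ± 0.1997 against 188 ± 38.4), then by the mitochondrial deacetylase gene Sirt3, which fell by 3.52 ± 0.35 on the log2 scale, and by the autophagy gene Atg7, which fell by 2.51 ± 0.21. In gastrocnemius against eWAT 24 were higher and 11 lower, where 67.4% of all genes passed and 26.3% were higher. Mtfp1, a fission gene of the inner membrane, rose by 4.12 ± 0.32 on the log2 scale, and Mief2, which encodes a Drp1 adaptor, by 3.84 ± 0.25. Chchd6, a gene of the cristae junction complex, fell by 3.13 ± 0.35, and the actin regulator gene Inf2 by 2.83 ± 0.32. In eWAT against liver 9 were higher and 25 lower, where 32.6% and 28.9% of all genes were, and the median was -0.32. These further genes were tested under TMM scaling alone. Of 9 genes of mitochondrial content (such as the citrate synthase gene Cs and the pore gene Vdac1), 6 were higher in gastrocnemius than in liver and 8 than in eWAT, with median log2 fold changes of 0.90 and 2.08. Their part in the differences of the 10 genes was not tested.

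Sperm and round spermatids were compared with the sperm libraries of both diets together (6 against 6). Of the 10 genes, 3 were higher and 3 lower in sperm (edgeR adjusted p from 5.93e-09 to 0.00950), where 74.3% of the 18657 genes tested passed, 26.2% higher and 48.1% lower. The median of all genes was -0.91 on the log2 scale under TMM scaling, so the values of the 10 genes are also given relative to it. TMM factors were 0.237 to 1.33 in sperm and 1.82 to 1.99 in round spermatids. The fold changes therefore do not follow from the CPM, which are relative to library totals. Read layout differed between the tables (paired reads for round spermatids, single reads for sperm). The methods also name Ribo-minus libraries for round spermatids and not for sperm. Neither can be told apart from the cell type. Markers of other cell types were also higher in sperm. The 6 epididymal markers summed to 1631 to 25008 CPM in sperm and to 3.53 to 4.96 CPM in round spermatids, nearly all of it Crisp1 and Adam7 in sperm. The 6 leukocyte markers summed to 60.1 to 110 CPM against 6.54 to 12.1 CPM, and the 6 erythroid markers to 27.3 to 195 CPM against 7.56 to 9.20 CPM. Their part in the differences of the 10 genes was not tested.

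Fundc1 rose most. It had 2.45, 11.7 and 28.1 CPM in sperm against the 0.178 to 0.546 CPM of round spermatids given above. Every sperm library was higher than every round spermatid library, and the log2 fold change was 6.71 ± 0.42, or 7.62 relative to the median. Oma1 rose by 3.25 ± 0.26 (4.17 relative to the median), with 4.35, 7.45 and 30.1 CPM in sperm and no overlap. Bnip3 rose by 1.43 ± 0.25 (2.34 relative to the median), but its counts in sperm were 2 to 12 per library and its CPM of 0.668 to 3.93 overlapped those of round spermatids, although the TMM-scaled values did not. On library totals Bnip3 turned to -0.22 and did not pass.

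Mfn2 fell by 2.60 ± 0.39 on the log2 scale, with 35.1 ± 24.9 TMM-scaled CPM in sperm against 210 ± 12.5 in round spermatids (SD, n = 6 each), without overlap. On library totals Mfn2 had 3.34, 16.97 and 38.4 CPM in sperm against the 369 to 413 CPM of round spermatids, also without overlap. Relative to the median of all genes it was 1.69 lower. Mfn1 fell by 1.07 ± 0.26 and Mff by 0.90 ± 0.28. Relative to the median they lay at -0.16 and 0.01. Opa1, Dnm1l, Fis1 and Pink1 did not pass, with log2 differences of 0.37, 0.06, 0.23 and -0.36, or 1.28, 0.97, 1.14 and 0.55 relative to the median. Of the listed pathway genes 61 were tested, and 23 were higher and 28 lower, where 26.2% and 48.1% of all genes were. Their values are not relative to the median. Fundc2, which like Fundc1 is on the X chromosome, rose by 7.28 ± 0.42 on the log2 scale and was the largest riser of the list, with 31.6 ± 14.8 against 0.198 ± 0.0662 TMM-scaled CPM (SD, n = 6 each). The autophagy gene Atg5 rose by 3.74 ± 0.47 and Nipsnap2 by 3.58 ± 0.46. Pld6, a mitochondrial phospholipase gene of the piRNA pathway, fell by 6.41 ± 0.50, Gdap1 by 4.75 ± 0.56 and the fission regulator gene Mtfr2 by 4.37 ± 0.56.

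Sperm of LFD-fed males alone against round spermatids gave 8 of the 10 genes past the threshold, 4 of them higher, where 78.3% of all genes passed and 25.3% were higher. Sperm of HFD-fed males alone gave 6, 2 of them higher, where 62.4% passed and 19.2% were higher. Opa1 stood at 0.58 with LFD sperm and at -0.78 with HFD sperm, and passed in both, in opposite directions. Without the LFD library with most epididymal marker counts, the same 6 of the 10 passed in the same directions, where 72.3% of all genes passed, and Fundc1 stood at 6.61.

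In sperm, diet was read against a shift of the whole libraries. No gene of the 8643 tested passed an adjusted p of 0.05 between HFD and LFD (0% called by edgeR), and the smallest adjusted p over all genes was 0.232. Of the 10 genes, 9 had enough counts to be tested and Bnip3 had not. None passed, and 1 had an unadjusted p under 0.05, where 13% of all genes did. A DESeq2 test of the same counts called 295 genes, none of them among the 9, and edgeR on library totals called 4 of the 9, where it called 37.8% of all genes. The 95% intervals of the 9 genes reached from -2.49 to 2.12 on the log2 scale.

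Opa1 had the largest difference of the 9 genes tested. It had 32.8, 50.1 and 69.1 CPM in sperm of LFD-fed males and 3.53, 4.01 and 12.3 CPM in sperm of HFD-fed males. Every HFD library was lower, with 12 to 50 counts of Opa1 per HFD library. After TMM scaling the values were 21.0, 26.8 and 33.003 with LFD and 7.75, 7.99 and 17.2 with HFD, which do not overlap either, and the log2 fold change of HFD over LFD was -1.27 ± 0.57 (95% interval -2.49 to -0.05, edgeR unadjusted p = 0.0422, adjusted p = 0.359).

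Mfn1 had 17.5, 19.996 and 35.5 CPM with LFD and 2.99, 3.20 and 4.01 CPM with HFD, the latter from 11 to 13 counts per library. TMM-scaled values were 11.5 to 13.8 with LFD and 4.47 to 7.75 with HFD, without overlap, with a log2 fold change of -1.02 ± 0.67 (adjusted p = 0.564, edgeR). Pink1 went the other way once scaled. It had 43.0, 46.9 and 48.1 CPM with LFD and 17.1, 25.6 and 33.1 CPM with HFD, but 16.6 to 31.6 against 35.8 to 63.9 after TMM scaling, with a log2 fold change of 0.82 ± 0.49 (adjusted p = 0.527, edgeR). Its direction therefore depends on the scaling, as does that of Mff, which had 37.7, 44.3 and 50.4 CPM with LFD and 17.4, 17.7 and 31.8 CPM with HFD and a TMM-scaled log2 fold change of 0.83 ± 0.52. Mfn2 and Oma1 also changed sign between the scalings. Dnm1l had 40.8, 47.9 and 105 CPM with LFD and 7.88, 10.7 and 18.2 CPM with HFD, and a scaled log2 fold change of -0.44 (95% interval -1.63 to 0.75). Fundc1 had 15.1, 19.5 and 28.1 CPM with LFD against 2.45, 5.34 and 8.37 CPM with HFD, and a scaled value of -0.36 (-1.80 to 1.08). Fis1 had 10.8, 15.4 and 19.1 CPM against 2.22, 3.34 and 3.53 CPM, and a scaled value of -0.50 (-2.12 to 1.12). The HFD values of Fis1 rest on 9 to 13 counts per library and those of Fundc1 on 9 to 34.

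As shares of the library total, 8 of the 9 tested genes were lower in every HFD library than in any LFD library, and so were 57.2% of all genes tested. As shares of the nuclear-encoded counts, 4 of the 9 were, against 26.2% of all genes, and after TMM scaling 2 were (Mfn1 and Opa1), against 12.3%. Pink1 was higher in every HFD library after TMM scaling, as were 8.12% of all genes. The ratio of Mff to Fis1 per kb does not depend on the scaling. It was 0.913 to 1.58 with HFD and 0.462 to 0.612 with LFD, without overlap. The HFD ratios rest on 9 to 13 counts of Fis1 per library. The ratio of Mff to Fis1 was chosen after the values had been seen and was not tested. The ratios of Mfn2 to Mfn1 (0.981 to 7.17 with HFD, 0.699 to 2.59 with LFD) and of Pink1 to Bnip3 (10.7 to 41.9, 10.1 to 16.9) overlapped between the diets. Summed as shares of the library total, markers of the epididymal epithelium were also lower in every HFD library, as were 57.2% of all genes. Crisp1, the largest of the 6, overlapped between the diets (1585 to 2604 CPM with HFD, 2474 to 23483 CPM with LFD). Adam7 did not (42.9 to 275 CPM against 539 to 1494 CPM). The sums were not taken relative to nuclear-encoded counts. The 6 markers summed to 1631, 2058 and 2881 CPM with HFD and to 3020, 8542 and 25008 CPM with LFD, with 4 or 5 of the 6 detected in each library, and the share of mitochondrially encoded RNA was higher in every HFD library. The library with most of these markers (LFD, 2560219 counts) also had the highest CPM of Dnm1l, Opa1, Mfn1, Oma1, Fis1 and Mff of the 6. Its column name holds an element that the other sperm column names lack, and the name does not explain it. The part of the markers in the differences was not tested. Without this library the log2 fold change of Opa1 was -1.26 and that of Mfn1 -0.94.

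**Figure D4:**
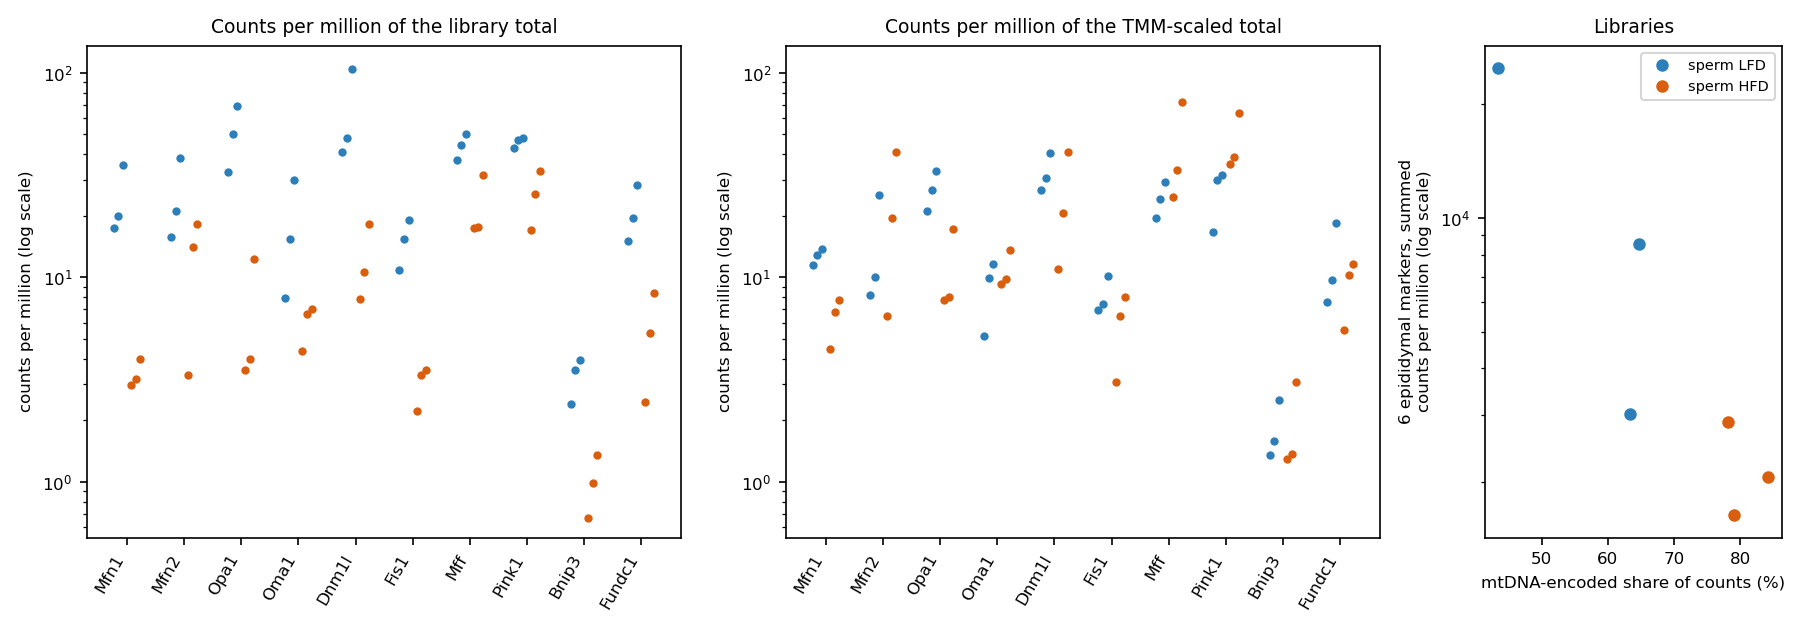
CPM (log axis) of the 10 genes in the 3 LFD (blue) and 3 HFD (orange) sperm libraries, relative to library totals (left) and to TMM-scaled totals (middle), and the summed epididymal markers against the share of mitochondrially encoded RNA (right). The HFD points lie below the LFD points for most genes on the left, and overlap them for most genes in the middle.

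In morula, none of the 10 genes passed the test for paternal diet. All 10 were tested, and none of the 13447 genes tested did (0% called by edgeR; 6.38% had an unadjusted p under 0.05, none of the 10 among them; a DESeq2 test of the same counts called 18 genes, none of these 10).

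The mitofusin genes were close in both groups. Mfn1 had 191.2, 202 and 209 CPM with HFD fathers and 185, 203 and 229 CPM with LFD fathers, with a log2 fold change of -0.06 (95% interval -0.27 to 0.15). Mfn2 had 17.3, 24.3 and 31.6 CPM against 21.2, 25.5 and 28.1 CPM, with -0.06 (-0.48 to 0.37). Opa1 had 50.01, 52.6 and 55.5 CPM against 50.1, 50.9 and 52.7 CPM, with 0.02 (-0.23 to 0.27). These intervals lie within 0.48 of 0 on the log2 scale. Dnm1l had 80.5, 89.95 and 99.2 CPM against 82.0, 91.6 and 91.6 CPM, and its log2 fold change was -0.00 with an interval of -0.23 to 0.23.

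Oma1 and Fis1 had groups without overlap. Oma1 had 8.80, 9.56 and 9.77 CPM with HFD fathers and 10.8, 11.8 and 13.2 CPM with LFD fathers (log2 fold change -0.37 ± 0.23, edgeR adjusted p = 0.843). Fis1 had 5.77, 5.86 and 7.41 CPM against 4.38, 5.32 and 5.77 CPM, where the nearest values nearly touch (log2 fold change 0.28 ± 0.30, adjusted p = 0.924, edgeR). Among all genes tested 6.18% were lower without overlap, as Oma1 was, and 5.94% higher, as Fis1 was. Mff had the smallest p of the 10: 24.8, 30.6 and 31.8 CPM with HFD against 20.7, 23.6 and 25.4 CPM with LFD, a log2 fold change of 0.30 ± 0.16 and an edgeR adjusted p of 0.803. The mitophagy genes overlapped. Pink1 had 43.3, 51.4 and 52.2 CPM against 37.8, 43.4 and 51.3 CPM, Bnip3 had 78.2, 79.4 and 90.5 CPM against 73.4, 75.2 and 87.3 CPM, and Fundc1 had 11.98, 13.001 and 13.4 CPM against 9.78, 15.9 and 18.7 CPM. Over the 10 genes the 95% intervals reached from -0.85 (Oma1) to 0.93 (Fis1). Of the 62 further genes 60 were tested in morula and 46 in sperm, and none passed in either.

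**Figure D5:**
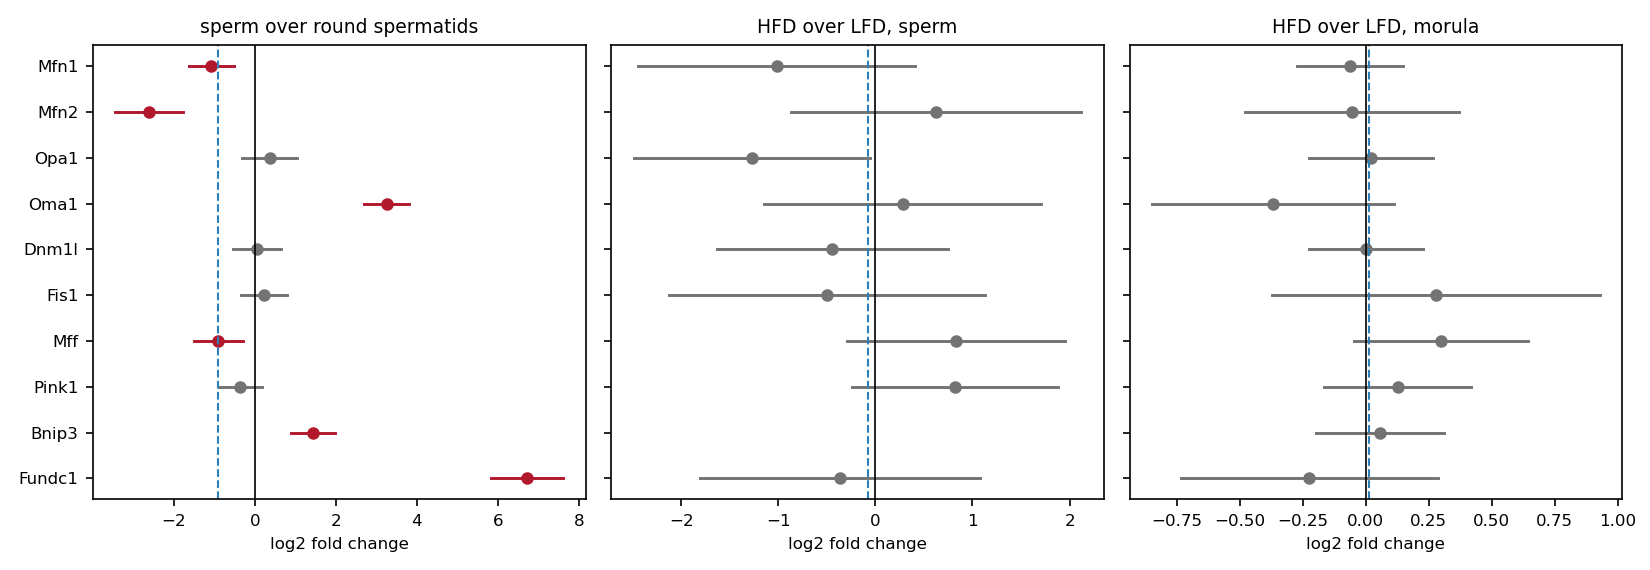
Log2 fold changes of the 10 genes (points) with 95% intervals (bars) for sperm over round spermatids and for HFD over LFD in sperm and in morula, from edgeR with TMM scaling; red passed an adjusted p of 0.05, grey did not, the dashed line is the median of all genes, and each panel has its own range. Bnip3 was not tested for diet in sperm. Every morula interval covers 0, and the widest interval of the sperm diet panel is that of Fis1, from -2.12 to 1.12.

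Whether the diet difference itself differed between sperm and morula was tested as an interaction over 15416 genes. None of the 10 passed, and 1 gene of all did (0.00649% called). Opa1 had a difference of the log2 fold changes (sperm minus morula) of -1.29 ± 0.49 and Mfn1 of -1.01 ± 0.39, with edgeR adjusted p of 0.330 and 0.334. These were the 2 of the 10 genes with an unadjusted p under 0.05, where 12% of all genes had one. The intervals reached from -2.34 (Opa1) to 2.37 (Mfn2). On library totals 5 of the 10 passed, where 22.1% of all genes did.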

How the data were processed

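The deposited tables hold counts per gene, made by the authors with the AIR software (BBDuk trimming, STAR alignment to GRCm38 with Ensembl annotation, featureCounts); tool versions and strand setting are not given in the sources used here. The authors tested with NOISeq, which was not used here. All 36 columns entered; 24 name no sample and were grouped by table. Members and lists were chosen with earlier results of these data known, and all 10 members were named in each comparison, with up to 3 listed partners per direction.

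CPM are counts over the library total. Differences were tested with edgeR 4.0.16 (quasi-likelihood test, TMM, filterByExpr minimum count 10, two-sided, Benjamini-Hochberg over all genes tested, threshold 0.05) in R 4.3.3, first on simulated data. The 3 offspring tissues shared 1 fit, as did sperm with round spermatids. Alternatives were DESeq2 1.42.0 size factors and test, limma 3.58.1 (voom), library totals, nuclear genes alone, no filter, left-out libraries, and sperm of 1 diet. Libraries of a group differed beyond sampling noise (lowest chi-square per degree of freedom 3.50). Overlaps came from GENCODE and blastn 2.17.0, promoters from RefSeq.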

Additional observations from a re-analysis of the deposited data

Results flagged for a closer look

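Values of 3 kinds stood apart within groups of 6 libraries, by Dixon's ratio above 0.625. In the round spermatids, Mfn2 had 369 CPM in the library of 20138842 counts, against 399 CPM in the next lowest. In gastrocnemius, Oma1 had 52.4 CPM in the library of 935991 counts, against 27.04 CPM in the next highest. In liver, the ratio of Mfn2 to Mfn1 counts was 6.14 in the library of 2036237 counts, against 4.28 in the next highest. These are 3 of 52 groups of values examined, and chance alone gives about 1 in 20. The causes were not tested.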

How the results depend on the processing

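Of 648 alternative log2 fold changes of the 10 genes, 563 kept direction and side of the threshold, 8 lost the call, 20 gained one and 57 changed direction, 15 of these with a call in either setting. The causes were not tested, apart from scaling on library totals, which by construction keeps the shift of whole libraries.

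On library totals, 4 of 9 members passed for diet in sperm (37.8% of all genes) and 5 of 10 in the interaction (22.1%). There, log2 values turned in sperm to -1.07 (Mfn2), -1.56 (Oma1), -0.98 (Mff) and -0.86 (Pink1), in the interaction to -1.04, -1.22, -1.31 and -1.01 for the same genes, and in morula to 0.023 (Dnm1l). For gastrocnemius against eWAT they turned to -0.13 (Oma1), -0.64 (Fis1), -0.78 (Bnip3) and -0.55 (Fundc1). For eWAT against liver they turned to 0.34 (Mfn1), 0.88 (Mfn2), 0.27 (Opa1), 0.68 (Oma1), 0.41 (Dnm1l), 0.61 (Mff) and 0.72 (Pink1). For sperm against round spermatids they turned to -0.95 (Opa1), -1.38 (Dnm1l), -1.28 (Fis1) and -0.22 (Bnip3).

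In that comparison Dnm1l also turned to -0.25 with DESeq2 size factors and with the DESeq2 test, to -0.57 without a filter, to -0.68 with HFD sperm alone and to -0.30 without the most epididymal library. Fis1 turned to -0.068, -0.044, -0.39 and -0.60 under the first 4 of these, and Opa1 to -0.26 without a filter and -0.78 with HFD sperm alone. Limma-voom turned Fundc1 to 0.029 in the interaction.

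Leaving out 1 library in turn, no member passed for diet. Values crossed 0 in sperm for Mfn2 (-0.13 to 1.39) and Fundc1 (-0.60 to 0.16), in morula for Mfn1 (-0.15 to 0.027), Mfn2 (-0.28 to 0.11), Dnm1l (-0.057 to 0.038) and Bnip3 (-0.055 to 0.12), and in the interaction for Mfn2 (-0.066 to 1.31), Mff (-0.095 to 0.76), Bnip3 (-0.51 to 0.17) and Fundc1 (-0.43 to 0.30).

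The sperm numbers 1 and 4 are shared between diets. Deviations of same-numbered libraries from their diet means had correlations of 0.103 and -0.136, and those of the other pairs ranged from -0.230 to 0.265. These values cannot decide whether the numbers pair the samples, because same-numbered pairs lie within the range of the others. With a replicate block 0 members and 2 genes passed. No paired analysis was possible in morula because the columns share no number. Over all genes, diet in sperm gave 3266 calls on library totals, 41 without a filter and 295 with DESeq2, against 0. In morula it gave 63 without a filter and 18 with DESeq2, against 0. The interaction gave 3413 on library totals and 7 with limma-voom, against 1.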
